A study of Mus musculus with 9 samples.

Results

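The regulators and readouts of epithelial-mesenchymal transition described here are 10 genes: Snai1, Snai2, Twist1, Twist2, Zeb1, Zeb2, Cdh1, Cdh2, Vim and Esrp1. They were found by their symbols in the platform annotation, in which 14 of the 41345 probe sets of the array name a member. Of the 10 genes, 9 had a probe set of their own, among 22180 such genes in all. Zeb2 was named only by probe sets that also carry another gene, and these are reported as such. Once the dimmest 30% of genes, by mean, had been removed, 7 members were among the 15526 genes tested, and Snai2 and Esrp1 were too dim to be among them.

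Expression was measured on 9 Affymetrix Mouse Gene 2.0 ST arrays with total RNA from cultures of a mouse prostate cancer line and its descendants. The parental MYCCaP line, derived from a prostate tumour of a mouse with a prostate-specific MYC transgene, was grown with dihydrotestosterone (DHT), an androgen, and its 3 arrays are technical replicates that count here as 1 sample. The other 6 arrays hold 3 vehicle lines and 3 AZD1208 lines, labelled biological replicates and grown without DHT, from MYCCaP tumours that had recurred in castrated mice given either vehicle or AZD1208, an inhibitor of the PIM kinases. All 3 groups therefore descend from 1 cell line with the same transgene. Recurrence, castration, culture without DHT and growth as a tumour separate both recurrent groups from the parental line at once and cannot be told apart. No source used here states if the lines of a group come from different mice, or how old the mice were.

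Epithelial-mesenchymal transition is the process by which epithelial cells give up their lateral junctions and take on the shape and motility of mesenchymal cells. The Snail (Snai1, Snai2), Zeb (Zeb1, Zeb2) and Twist (Twist1, Twist2) transcription factors repress epithelial genes. Loss of E-cadherin (Cdh1), gain of N-cadherin (Cdh2) and of the intermediate filament vimentin (Vim), and loss of the epithelial splicing regulator Esrp1 are its usual readouts. The miR-200 microRNAs and the Zeb factors repress each other. In prostate cancer the transition has been studied in relation to androgen withdrawal and to spread.

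The mature miR-200 sequences are shown because their seeds pair with the Zeb1 and Zeb2 transcripts, and they fall into 2 groups by seed. The sequences are those of RefSeq (GRCm38.p6), written from the 5′ end, with the seed (bases 2 to 8) in capitals. All 5 members of the family matched by name.
miR-141-3p: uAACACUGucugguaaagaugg
miR-200a-3p: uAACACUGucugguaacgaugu
miR-200b-3p: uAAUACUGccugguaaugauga
miR-200c-3p: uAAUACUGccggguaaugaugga
miR-429-3p: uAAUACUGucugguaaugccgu
The first 2 share the seed AACACUG and the other 3 share AAUACUG.

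Promoter windows, 250 bases before to 50 after a start site, were held for 5 members (Snai1, Twist1, Twist2, Vim and Zeb2, 8 windows in all) in RefSeq's table for GRCm38.p6. The E-box read by Snail and Zeb repressors was searched as CAGGTG on either strand, which on the printed strand is CAGGTG or CACCTG. It was present in 1 of the 8 windows, that of Snai1, and in 20.2% of all 32851 windows of 300 bases. The 250 bases before the start site are printed for Snai1, with the motif in capitals, and for Vim and Twist2, the members whose AZD1208 and vehicle lines did not overlap on the deposited scale. The Snai1 stretch is chr2:167537945-167538194 on the + strand, that of Vim is chr2:13574061-13574310 on the + strand, and that of Twist2 is chr1:91801211-91801460 on the + strand.
Snai1: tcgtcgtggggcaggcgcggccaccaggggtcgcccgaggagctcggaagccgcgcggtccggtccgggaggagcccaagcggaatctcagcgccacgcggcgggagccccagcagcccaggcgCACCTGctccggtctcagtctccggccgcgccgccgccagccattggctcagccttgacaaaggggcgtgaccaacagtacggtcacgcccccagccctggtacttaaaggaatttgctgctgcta
Vim: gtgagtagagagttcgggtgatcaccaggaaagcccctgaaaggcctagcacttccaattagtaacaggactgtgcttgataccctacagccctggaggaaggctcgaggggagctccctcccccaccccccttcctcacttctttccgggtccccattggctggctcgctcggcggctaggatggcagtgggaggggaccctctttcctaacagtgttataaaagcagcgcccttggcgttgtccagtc
Twist2: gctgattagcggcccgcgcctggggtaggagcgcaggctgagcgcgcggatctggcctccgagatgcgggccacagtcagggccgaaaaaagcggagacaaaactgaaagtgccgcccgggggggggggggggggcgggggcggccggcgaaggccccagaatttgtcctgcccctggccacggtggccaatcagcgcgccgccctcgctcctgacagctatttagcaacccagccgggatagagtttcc
In the Snai1 stretch the first base of CACCTG lies at position -126 from the start site. The absence of these letters from the other windows says only that they are not in those bases. The promoters of Cdh1, Cdh2, Esrp1, Snai2 and Zeb1 were not analysed here.

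Every value below is a log2 intensity as the authors deposited it, so that 1 unit is a doubling of signal, and levels are compared only within a probe set. Differences come from a linear model over 7 samples (limma), with p-values adjusted by Benjamini-Hochberg over all 15526 genes tested. For Snai2 and Esrp1 the fit and adjustment were over all 22180 genes, without the filter. For Zeb2 and the second probe sets they were over all 41345 probe sets. No member passed the adjusted threshold of 0.05 in any of the 4 comparisons (adjusted p = 1 for each, limma). The background was the same: 0% of the genes tested passed when AZD1208 lines were set against vehicle lines, and also when either group or the mean of both (recurrent lines) was set against the parental line. At an unadjusted p under 0.05 there were 81 genes between the line groups, and 357 for vehicle, 408 for AZD1208 and 429 for recurrent lines against parental. With the replicate number as a block and the parental arrays as 3 samples, 105, 89 and 337 genes passed in these last 3 comparisons and 0 between the line groups, and no member was among them. Counted by direction in the main fit over 7 samples, 0.155% of genes were higher and 0.367% lower at that level in AZD1208 lines against vehicle lines, and 2.02% higher and 0.747% lower in recurrent lines against parental. All these unadjusted counts lay below the 0.05 share of genes that the threshold passes on average where no gene differs. The SD of a gene had a median of 0.09 for the technical arrays, against 0.19 for vehicle and 0.25 for AZD1208 lines.

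The members' pattern was therefore one of small differences. Against the parental line, both probe sets of Vim and both of Zeb2 stood higher in all 6 lines, by 1.34- to 1.66-fold. The Cdh1 probe set of highest mean stood lower in all 6, by 1.18-fold. Of all 15526 genes tested, 11.8% had all 6 lines above the parental line and 10.8% had all 6 below. The Zeb2 probe sets and the second probe sets were not among those genes. The second Cdh1 probe set had 2 lines above and 4 below (-0.06, SE 0.28). The orders of all 6 lines held with quantile normalization and with each sample centred on its median. Between AZD1208 and vehicle lines, Vim was higher by 1.11-fold and Twist2 lower by 1.37-fold, without overlap of the lines on the deposited scale. Of all genes tested, 1.41% had the AZD1208 lines all above the vehicle lines and 1.97% had them all below. That separation was lost for Vim under both other scales and for Twist2 under quantile normalization. The remaining members overlapped between the line groups and lay on both sides of the parental mean.

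**Figure D1:**
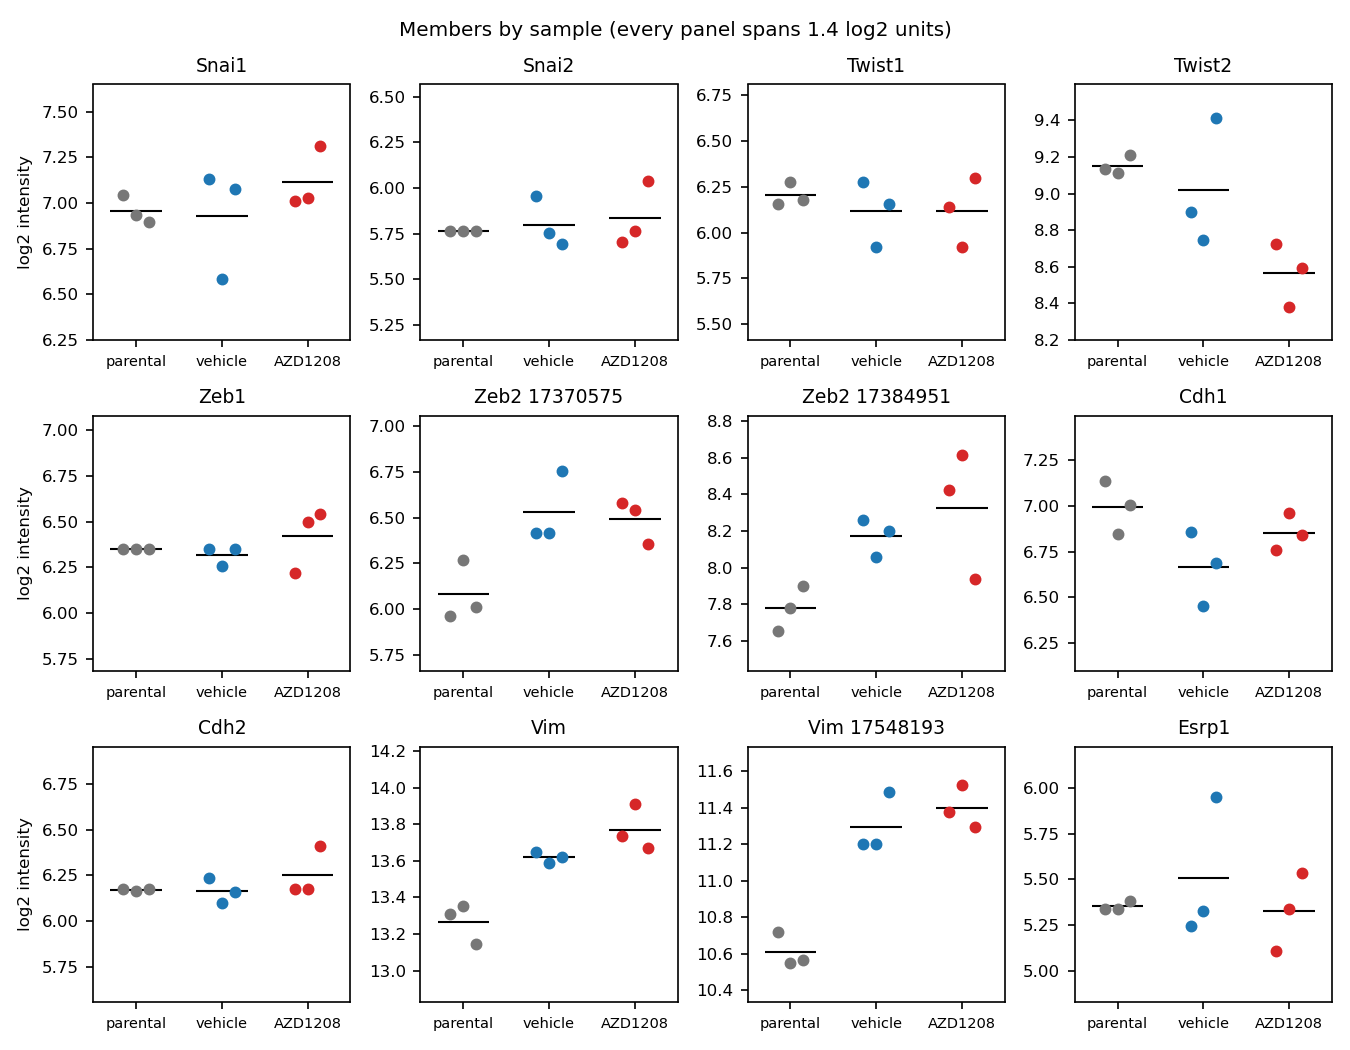
Log2 intensity (vertical axis) of each member's probe set in the 3 parental technical arrays (grey), 3 vehicle lines (blue) and 3 AZD1208 lines (red), with the group mean as a bar and every panel spanning 1.4 log2 units. Vim and the Zeb2 probe sets lie higher in every line than the parental mean, Cdh1 lies lower, and Twist2 is lowest in the AZD1208 lines.

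Vim encodes the main intermediate filament protein of mesenchymal cells. Its probe set of highest mean (17367055) was at 13.31, 13.35 and 13.14 on the parental arrays, at 13.65, 13.59 and 13.62 in vehicle lines 1 to 3, and at 13.73, 13.91 and 13.67 in AZD1208 lines 1 to 3. The recurrent lines did not overlap with the parental arrays, and on the deposited scale the AZD1208 lines all lay above the vehicle lines, the nearest pair being AZD1208 3 at 13.67 and vehicle 1 at 13.65. That order did not hold on the other scales. With quantile normalization vehicle 1 (13.70) lay above AZD1208 1 (13.68) and AZD1208 3 (13.67), and with centring AZD1208 3 (13.59) lay below every vehicle line. Recurrent lines were 1.34-fold higher than parental (log2 difference 0.43, SE 0.19, 95% interval -0.01 to 0.87, unadjusted p = 0.0546, adjusted p = 1, limma). AZD1208 lines alone were 1.42-fold higher than parental (0.50, SE 0.20, unadjusted p = 0.039, adjusted p = 1, limma) and vehicle lines 1.28-fold (0.35, SE 0.20). AZD1208 lines differed from vehicle lines by 0.15 (SE 0.14, 95% interval -0.18 to 0.48), a difference near its own error that became 0.08 without AZD1208 2.

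A second probe set of Vim (17548193) gave a larger difference from the parental line and none without overlap between the line groups. It was at 10.72, 10.55 and 10.57 on the parental arrays, 11.20, 11.20 and 11.49 in vehicle lines 1 to 3, and 11.38, 11.52 and 11.29 in AZD1208 lines 1 to 3. Recurrent lines were 1.66-fold higher (0.73, SE 0.19, 95% interval 0.28 to 1.19, unadjusted p = 0.00699, adjusted p = 1, limma over all probe sets). Both probe sets therefore had 6 of 6 lines above the parental mean, and they differed in size, 0.43 against 0.73. The line groups overlapped in the second probe set on all 3 scales.

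Cdh1 encodes E-cadherin, the adhesion molecule of epithelial junctions. Its probe set 17505148 was at 7.14, 6.85 and 7.002 on the parental arrays, at 6.86, 6.45 and 6.69 in vehicle lines 1 to 3, and at 6.76, 6.96 and 6.84 in AZD1208 lines 1 to 3. All 6 lines were below the parental mean of 6.995, but AZD1208 2 and vehicle 1 lay above the lowest parental array, so the difference was no larger than technical spread for those lines. The recurrent lines were 1.18-fold lower (-0.24, SE 0.21, 95% interval -0.74 to 0.27, unadjusted p = 0.307, adjusted p = 1, limma). AZD1208 lines were nearer to the parental line (-0.14, SE 0.23) than vehicle lines were (-0.33, SE 0.23), and the difference between the 2 line groups was 0.19 (SE 0.16), with an interval of -0.19 to 0.57 that holds 0. It became 0.08 without vehicle 2. The mean of both probe sets gave -0.06 for AZD1208 lines and -0.15 for recurrent lines against parental. The second probe set of Cdh1 (17512677) was at 4.604 in the parental mean and between 4.15 and 4.91 in the lines, 2 above it and 4 below, and so did not share the order.

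Cdh2 encodes N-cadherin, the cadherin of neural and mesenchymal cells. Its probe set 17352884 was at 6.17 in the parental mean and between 6.10 (vehicle 2) and 6.41 (AZD1208 3) in the lines, with 4 of the 9 arrays at the same value. Recurrent and parental levels differed by 0.04 (SE 0.19, 95% interval -0.41 to 0.49), a direction that turned under some alternatives, array quality weights among them. The second probe set, 17415231, ranged from 2.94 to 3.15 over the lines, around a parental mean of 3.07. No switch from Cdh1 to Cdh2 was measured beyond the replicate error, and the intervals reach from -0.74 for Cdh1 to 0.49 for Cdh2 on the log2 scale.

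**Figure D2:**
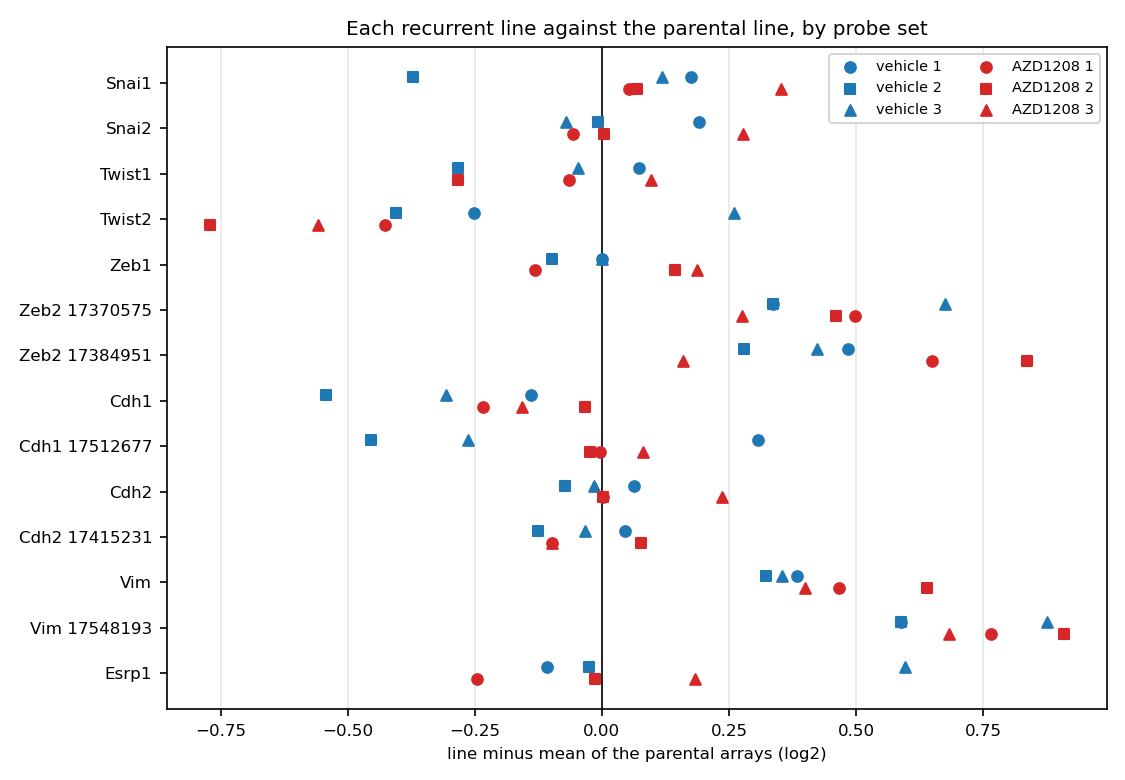
Difference in log2 intensity between each recurrent line and the mean of the parental arrays (horizontal axis) for all 14 probe sets of the members, vehicle lines in blue and AZD1208 lines in red, with shapes for the line number. The 6 points of Vim, the second Vim probe set and both Zeb2 probe sets lie right of 0, the 6 points of Cdh1 lie left of it, and those of the other probe sets fall on both sides or on it.

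Among the repressors, Zeb2 was the one with every line above the parental mean. The probe set annotated to Zeb2 and Mir5129 (17384951) was at 7.65, 7.78 and 7.90 on the parental arrays, 8.26, 8.06 and 8.20 in vehicle lines 1 to 3, and 8.43, 8.61 and 7.94 in AZD1208 lines 1 to 3. On the deposited scale no line overlapped with the parental arrays, although AZD1208 3 stood close to the highest of them. With centring AZD1208 3 was at 7.85, against a parental mean of 7.78. The recurrent lines were 1.39-fold higher (0.47, SE 0.26, 95% interval -0.16 to 1.10, unadjusted p = 0.118, limma over all probe sets). The probe set annotated to Zeb2 and its antisense partner Zeb2os (17370575) was at 5.96, 6.27 and 6.01 on the parental arrays, 6.42, 6.42 and 6.76 in vehicle lines 1 to 3, and 6.58, 6.54 and 6.36 in AZD1208 lines 1 to 3. It was 1.35-fold higher in recurrent lines (0.43, SE 0.20, 95% interval -0.05 to 0.91, unadjusted p = 0.0722, limma over all probe sets). The lines of smallest difference were AZD1208 3 in both probe sets, and those of largest difference were AZD1208 2 in the first and vehicle 3 in the second. Since each probe set also names another gene, signal of Zeb2 and of that gene cannot be told apart.

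Zeb1, the paralogue of Zeb2, did not share that order. It was at 6.35 on the 3 parental arrays and in vehicle 1 and vehicle 3, at 6.26 in vehicle 2, and at 6.22, 6.50 and 6.54 in AZD1208 lines 1 to 3. The same value stood on 5 of the 9 arrays, so the parental SD of 0 is not a measure of precision. Such repeats were common in dim probe sets: 16.4% of all probe sets had the same value on 3 or more arrays, from 23.4% and 25% in the dimmest and next brightness class of equal size to 3.15% in the brightest of 4. Recurrent lines differed from parental by 0.02 (SE 0.20, 95% interval -0.45 to 0.49) and AZD1208 from vehicle lines by 0.10 (SE 0.15), and both directions turned with array quality weights (-0.05 and -0.02).

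Twist2, a basic helix-loop-helix repressor, showed the members' largest difference between the line groups. It was at 9.13, 9.11 and 9.21 on the parental arrays, 8.90, 8.75 and 9.41 in vehicle lines 1 to 3, and 8.73, 8.38 and 8.59 in AZD1208 lines 1 to 3. On this scale the AZD1208 lines were all below the vehicle lines, but AZD1208 1 and vehicle 2 differed by little, and vehicle 3 alone stood above the parental arrays. With quantile normalization the groups overlapped, AZD1208 1 (8.67) and AZD1208 3 (8.76) lying above vehicle 2 (8.65), and with centring they did not. AZD1208 lines were 1.37-fold lower than vehicle lines (-0.45, SE 0.21, 95% interval -0.95 to 0.04, unadjusted p = 0.0666, adjusted p = 1, limma). Without vehicle 3 the difference was -0.26. Against the parental line, AZD1208 lines were 1.5-fold lower (-0.59, SE 0.30, unadjusted p = 0.0883) and vehicle lines 1.1-fold lower (-0.13, SE 0.30, limma), 2 values that share the parental sample.

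**Figure D3:**
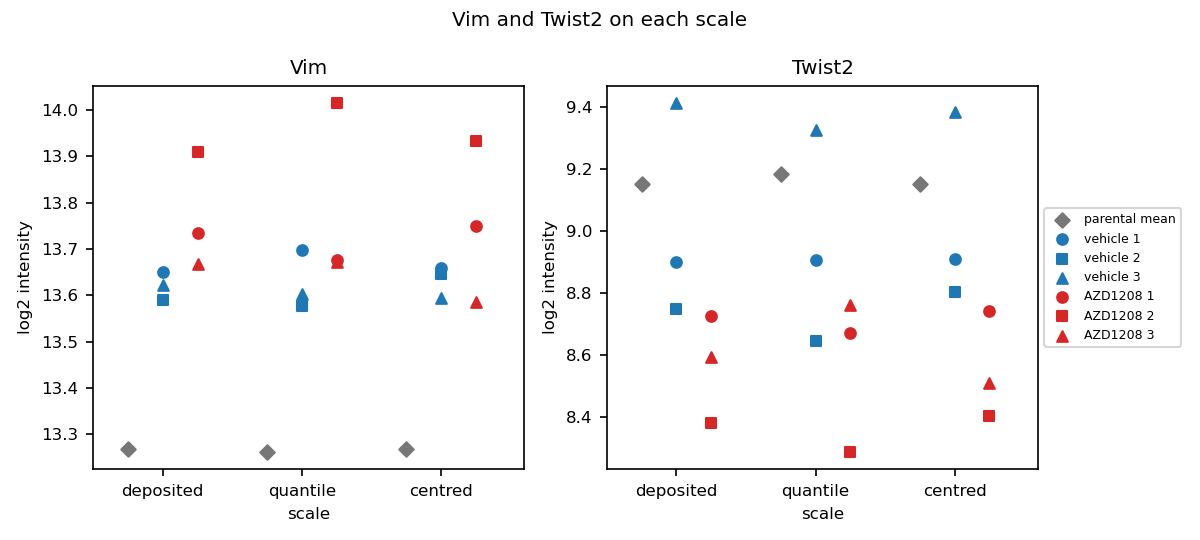
Log2 intensity (vertical axis) of Vim and Twist2 in the parental mean (grey), 3 vehicle lines (blue) and 3 AZD1208 lines (red) on the deposited scale, after quantile normalization and after each sample was centred on its median. The lines of both groups overlap for Vim after quantile normalization and after centring and for Twist2 after quantile normalization, while Vim stays above the parental mean in all 6 lines on each scale.

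Twist1, its paralogue, was at 6.20 in the parental mean and between 5.92 and 6.30 in the lines. The lowest lines were vehicle 2 and AZD1208 2, both at 5.92, so each group held 1 of them. AZD1208 and vehicle lines differed by 0.00 (SE 0.17, 95% interval -0.40 to 0.41), a sign that turned with quantile normalization and with centring of each sample.

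Snai1 was at 7.04, 6.93 and 6.90 on the parental arrays, at 7.13, 6.59 and 7.08 in vehicle lines 1 to 3, and at 7.01, 7.03 and 7.31 in AZD1208 lines 1 to 3. Vehicle 2 was the one line below the parental mean, and the groups overlapped. AZD1208 lines differed from vehicle lines by 0.19 (SE 0.20, 95% interval -0.27 to 0.64), which became 0.01 without vehicle 2. Recurrent lines differed from parental by 0.07 (SE 0.26), with the sign turned under array quality weights. Snai2, which encodes Slug, read 5.76 on all 3 parental arrays and between 5.69 (vehicle 3) and 6.04 (AZD1208 3) in the lines, 3 above and 3 below. It lay under the filter, and its differences of 0.06 (SE 0.20) from parental and 0.04 (SE 0.15) between line groups come from a fit without the filter.

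Several of the repressor and cadherin probe sets had a line in common at their top. AZD1208 3 was the highest line for Snai1, Snai2, Twist1, Zeb1 and Cdh2, and its array had the highest median of all 9, 6.36 against 6.22 to 6.31 for the others. The same array had the smallest interquartile range, 2.87 against 2.98 to 3.12 for the others. Vehicle 2, whose array median was the lowest at 6.22, was the lowest line for Snai1, Twist1, Cdh1 and Cdh2. After each sample was centred on its median, AZD1208 3 was still highest for Snai1 and Cdh2, while vehicle 1 was highest for Snai2 and Twist1 and AZD1208 2 for Zeb1. Over all 14 probe sets of the members, the range over lines became narrower with centring in 9 and wider in 5, among them both of Vim and both of Zeb2.

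Esrp1, the epithelial splicing regulator, lay under the filter. It was at 5.34, 5.34 and 5.38 on the parental arrays and between 5.11 (AZD1208 1) and 5.95 (vehicle 3) in the lines, 2 above the parental mean and 4 below. Vehicle 3 alone stood well above the rest, and all 4 differences changed sign when a line was left out. Esrp2, its paralogue, was at 10.13 in the parental mean, 9.66, 9.87 and 9.92 in vehicle lines 1 to 3, and 9.64, 8.999 and 9.72 in AZD1208 lines 1 to 3. It was lower in all 6 lines, by 1.4-fold (-0.49, SE 0.29, unadjusted p = 0.137, limma). Rbfox2, a splicing regulator of the mesenchymal state, was higher in all 6 lines by 1.22-fold (0.28, SE 0.18, unadjusted p = 0.151, limma). Among the 9 splicing regulators, 5 were higher and 4 lower in recurrent lines. Of them, 1 lay above parental in all 6 lines and 1 below, orders of 11.8% and 10.8% of all genes.

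The 7 members past the filter were also counted together, beside all genes. In recurrent lines against parental 4 were higher and 3 lower, with a median difference of 0.02 against -0.02 over all 15526 genes. In AZD1208 against vehicle lines 6 were higher and 1 lower, with a median of 0.10 against -0.02. Vim was the 1 member with all 6 lines above parental, where 11.8% of all genes had that order, and Cdh1 the 1 with all 6 below, where 10.8% did. On the deposited scale Vim was also the 1 member with the AZD1208 lines all above the vehicle lines (1.41% of all genes), and Twist2 the 1 with them all below (1.97% of all genes), classes that Vim left under both other scales and Twist2 under quantile normalization. With 7 members, single genes in these classes are few to read against those shares.

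The transition's other genes were taken from 10 lists with 147 measured genes, of which 130 passed the filter. Of these 130, 0 passed the adjusted threshold in any comparison (limma). For orders of all 6 lines in these lists, the shares over all genes are 11.8% above parental and 10.8% below. Named genes were those of smallest unadjusted p, a choice that favours such orders. Junction and epithelial surface genes were split, with 17 of 27 tested higher and 10 lower in recurrent lines (median 0.02). Krt19, a keratin of simple epithelia, was the exception in size, at 8.29 in the parental mean and between 6.59 and 6.96 in the lines, 2.87-fold lower (-1.52, SE 0.23, unadjusted p = 0.00022, adjusted p = 0.682, limma). Cldn3, a tight junction claudin, and Krt18, another simple keratin, were also lower in all 6 lines, by 0.41 (SE 0.31) and 0.23 (SE 0.22). Spint2, an inhibitor of membrane serine proteases, was higher in all 6 lines by 0.40 (SE 0.38). Of the 27 tested, 1 was thus above parental in all 6 lines and 3 below, near or under the shares over all genes. Of the 11 epithelial transcription factors, 5 were higher and 6 lower, with Trp63 higher in all 6 lines by 0.43 (SE 0.37) and Ovol1 lower in 5 by 0.43 (SE 0.45). On the deposited scale Klf5 was lower in every AZD1208 line than in any vehicle line (-0.30, SE 0.16), an order of 1.97% of all genes. St14, a membrane protease of epithelia, was higher in the same way (0.27, SE 0.14), an order of 1.41%. For Klf5 the nearest pair was AZD1208 3 at 9.86 and vehicle 3 at 9.88, and neither order was examined on the other scales.

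Of the other transcription factors of the transition, Snai3 and Sox4 differed more between recurrent and parental lines than any member's probe set did, in opposite directions. Snai3, the third Snail gene, was at 8.09 in the parental mean, 6.63, 7.32 and 7.22 in vehicle lines 1 to 3, and 6.98, 6.93 and 7.11 in AZD1208 lines 1 to 3. It was lower in all 6 lines, by 2.09-fold (-1.06, SE 0.28, unadjusted p = 0.00585, adjusted p = 1, limma). Sox4 was higher in all 6 lines, from 7.81 in the parental mean to between 8.48 and 9.66, by 2.18-fold (1.12, SE 0.44, unadjusted p = 0.0374, limma). Foxc1 was higher in all 6 lines by 1.48-fold (0.57, SE 0.24, unadjusted p = 0.0451, limma). Over the 11 of this list tested, 6 were higher and 5 lower, with a median of 0.03, and 2 lay above parental in all 6 lines and 1 below.

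Mesenchymal genes were divided too, with 15 of 26 higher and 11 lower in recurrent lines and a median of 0.09. Sparc (0.39, SE 0.26), Cald1 (0.68, SE 0.46) and Col5a1 (0.42, SE 0.29), which encode matrix and contractile proteins, were the 3 of 26 higher in all 6 lines. Nt5e, an ecto-nucleotidase, ranged from 6.54 to 11.12 over the lines, with a difference of 1.56 and an SE of 1.62. Acta2, smooth muscle actin, was at 11.87 in AZD1208 2 and between 7.05 and 7.998 in the other lines. In the 5 other intermediate filament genes, 3 were higher and 2 lower, Des being higher in all 6 lines by 0.33 (SE 0.42). Of the 7 other cadherins tested, 6 were lower in recurrent lines, with a median of -0.14, and among them Cdh11, a mesenchymal cadherin, differed by -0.21 (SE 0.26) and Cdh3, P-cadherin, by -0.18 (SE 0.30).

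Of the listed genes of pathways that can induce the transition, 15 of 18 tested were higher in recurrent lines, with a median of 0.18, against -0.02 over all genes. The list was not confined to genes that promote the transition, and held Smad7 (0.21) and Bmp7 (-0.17). In vehicle lines against parental 16 were higher and 2 lower (median 0.36), and in AZD1208 lines 11 were higher and 7 lower (median 0.15), with the parental sample shared. The receptors Notch1 (0.75, SE 0.31) and Egfr (0.75, SE 0.32) were higher in all 6 lines. So were the TGF-beta co-receptor Tgfbr3 (0.94, SE 0.42) and the ligand Tgfb3 (0.47, SE 0.28). These were the 4 of 18 tested with that order, held by 11.8% of all genes. Unadjusted p was 0.0446 for Notch1 and 0.0494 for Egfr, and 0.0588 for Tgfbr3 (limma). The partners and degraders of the repressors had 10 of 14 higher and a median of 0.04. Of these, the corepressor Rcor1 was higher in all 6 lines by 0.26 (SE 0.18) and Ajuba, which binds Snail proteins, lower in all 6 by 0.32 (SE 0.33).

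**Figure D4:**
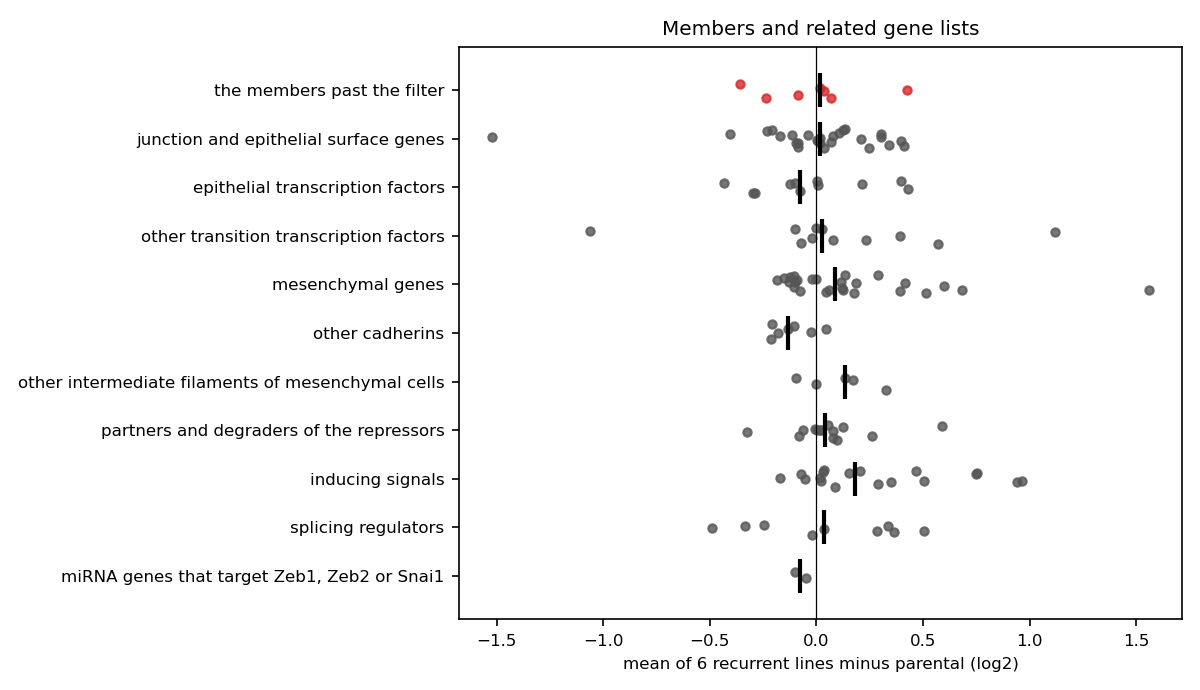
Mean of the 6 recurrent lines minus the parental mean in log2 units (horizontal axis) for each tested gene of the members (red) and of the 10 other lists (grey), with the list median as a black bar. The medians lie between -0.14 and 0.18, and single genes such as Krt19 at -1.52 and Nt5e at 1.56 lie far from them.

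Of the 8 listed miRNA genes that target Zeb1, Zeb2 or Snai1, 7 had a probe set and 2 passed the filter, both of the miR-200 family and of different seeds as printed above. The probe set of Mir200b was at 6.29 in the parental mean, 5.88, 7.26 and 6.43 in vehicle lines 1 to 3, and 5.66, 5.75 and 6.13 in AZD1208 lines 1 to 3. Vehicle 2 stood highest, and the groups overlapped, with a difference of -0.67 between AZD1208 and vehicle lines (SE 0.34, unadjusted p = 0.0868, limma). Mir200a was at 6.55 in the parental mean and between 6.25 and 6.84 in the lines, with a difference of -0.11 (SE 0.18) between line groups. These probe sets are annotated to the miRNA genes and were not read as levels of the mature sequences.

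The samples were cultured lines, and markers of other cell types were read beside the members. Fewer cells of a type and less RNA per cell cannot be told apart in such bulk samples. Of 11 fibroblast markers, 8 passed the filter, 4 of them higher and 4 lower in recurrent lines. Postn, Pdgfra and Fbln2 were higher in all 6 lines, an order held by 11.8% of all genes. The log2 of the summed unlogged level of all 11 was 10.16 in the parental line. It was 10.65 to 11.59 in vehicle lines and 10.73 to 13.21 in AZD1208 lines. This sum, in which the brightest markers weigh most, was higher in every line, as Vim and the Zeb2 probe sets were. Its part in those differences was not tested. Col1a1, a defining fibroblast gene, was at 7.34 in the parental line and between 7.06 and 7.47 in the lines. Col1a2 was lower in 5 of the 6 lines. Col3a1 was at 6.77 in the parental line and between 6.32 and 6.86 in the lines, and Thy1 at 7.32 and between 6.82 and 7.62. Pdgfrb was at 9.78 in AZD1208 2, the highest line in both Vim probe sets, and between 6.49 and 7.22 in the other lines. Dcn, Lum and Fap were under the filter, with Dcn at 6.68 in AZD1208 2 and between 5.30 and 5.83 in the other lines. The leukocyte sum was 9.53 in the parental line, 9.41 to 10.03 in vehicle and 9.31 to 10.10 in AZD1208 lines, with Ptprc under the filter. Of the 5 leukocyte markers tested, 2 were higher and 3 lower in recurrent lines. Cd68 was higher in all 6 lines by 0.40 (SE 0.36), while Csf1r (-0.15, SE 0.21) and Cd3e (-0.05, SE 0.26) were each lower in 5. Itgam, under the filter, was at 5.89 in the parental line and between 5.66 and 5.82 in the lines. On the deposited scale Adgre1 was lower in every AZD1208 line than in any vehicle line, an order of 1.97% of all genes. The nearest pair was AZD1208 3 at 5.80 and vehicle 3 at 5.81. The Adgre1 difference was -0.56 (SE 0.23, unadjusted p = 0.0413, adjusted p = 1, limma). Lyz2, under the filter by its mean, was at 5.18 in the parental line and at 7.10 in vehicle 1, 6.97 in vehicle 2 and 6.42 in AZD1208 2, against 4.74 to 5.18 in the other lines. The part of these markers in the members' differences was not tested. The endothelial sum was 8.99, 8.74 to 8.96 and 8.78 to 9.05 in the same order.

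Epithelial and prostate markers were read against the label of the cells. Epcam was under the filter, at 4.99 in the parental line and 4.51 to 5.06 in the lines. Krt8, a keratin of luminal cells, was at 9.19 in the parental line and between 8.24 and 10.44 in the lines, 3 above and 3 below. Krt14, a keratin of basal cells, was at 7.86 in the parental line and between 6.87 and 7.34 in the lines, 1.64-fold lower in all 6 (-0.72, SE 0.23, unadjusted p = 0.0161, adjusted p = 1, limma). Cldn4 was at 7.19 in the parental line and between 6.61 and 8.83 in the lines, and Cldn7 at 5.85 and between 5.70 and 5.97. Of the 5 epithelial markers tested, 3 were higher and 2 lower in recurrent lines. The log2 sum of the 6 epithelial markers measured was 10.20 in the parental line, 9.69 to 10.67 in vehicle and 9.91 to 10.86 in AZD1208 lines. Hoxb13, a transcription factor of the prostate, was at 8.86 in the parental line and between 8.44 and 8.92 in the lines, while Pbsn, the androgen-dependent probasin gene, was under the filter. Of the 5 prostate markers tested, 2 were higher and 3 lower in recurrent lines. Fkbp5 differed by 0.16 (SE 0.20), and Tmprss2 was at 6.12 in the parental line and between 5.83 and 6.49 in the lines. The 2 largest differences were those of Steap4 and Psca. Steap4, a metalloreductase, was at 8.47 in the parental line and between 10.33 and 12.64 in the lines, 8.32-fold higher (3.06, SE 0.85, unadjusted p = 0.00792, adjusted p = 1, limma). Psca, a surface antigen of prostate cells, was at 11.31 in the parental line and between 6.98 and 10.11 in the lines, 8-fold lower (SE of the log2 difference 1.29, unadjusted p = 0.0514, limma).

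Across the 7 samples, 16 pairs of members were correlated, namely Cdh1 and Esrp1 each with the 6 repressors, Cdh1 with Esrp1, Cdh2 and Vim, and Zeb1 with Vim. Zeb2 was read by the probe set it shares with Mir5129, and Snai2 and Esrp1 lay under the filter. None of the pairs had an unadjusted p under 0.05 by either measure (two-sided exact permutation test), and 5 of the 16 Pearson coefficients were below 0. The smallest p of all was that of Esrp1 with Zeb1 by rank (Spearman rho = 0.63, exact permutation p = 0.143, adjusted p = 0.964), a pair with r = 0.325 (exact permutation p = 0.49, adjusted p = 0.906). Its r was 0.665 without the 2 samples farthest from the median of Esrp1. The smallest p by Pearson's r was that of Cdh1 with Snai1 (r = 0.618, exact permutation p = 0.148, adjusted p = 0.906, Spearman rho = 0.143, exact permutation p = 0.783). Without the 2 samples farthest from the median of Cdh1, that r was 0.0593, so it rested on those samples. Cdh1 and Zeb1 gave r = 0.545 (exact permutation p = 0.201, adjusted p = 0.906) with rho = 0.482 (exact permutation p = 0.307), and r = 0.596 without the 2 samples. Cdh1 and Vim gave r = -0.0568 (exact permutation p = 0.903, adjusted p = 0.906) and rho = 0.107 (exact permutation p = 0.84). Without the 2 samples farthest from the median of Cdh1, r with Vim was 0.748, and r with Twist2 went from -0.123 to -0.844. No test was made of the coefficients without 2 samples. A relation of Cdh1 with a repressor was not detectable in these 7 samples.

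Over the same 7 samples and 13802 genes, the genes most like each member were named by Pearson's r, as a description. For Vim they were Wdr81 (r = 0.988) and Adamtsl5 (r = 0.973), and for Cdh1 Grm6 (r = 0.977) and Rab20 (r = 0.96). For Twist2 they were Rps27 (r = 0.977), a ribosomal protein gene, and Lsm11 (r = 0.968), and for Twist1 Col9a1 (r = 0.997) and Fjx1 (r = 0.991). For Snai1 they were Reep1 (r = 0.995) and Pla2g4e (r = 0.983), for Zeb1 Amhr2 (r = 0.994) and Bhmt2 (r = 0.986), and for Cdh2 Hotair (r = 0.989) and Dnaaf3 (r = 0.985). All points share the arrays' scale, and Snai1, Twist1, Zeb1 and Cdh2 had AZD1208 3, the array of highest median, as their highest line. No test was made of these coefficients.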

How the data were processed

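The authors deposited log2 intensities, with a value for every probe set on each array. The submitters' processing notes name oligo, with no version, its normalization and summary steps not given in the sources used here. A rise of the whole scale on an array moves its genes together. The files hold no detection calls, and the number of arrays limits the precision.

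In the platform annotation 23521 of the 41345 probe sets named 1 gene, 1814 named several and 16010 were unlisted, and 0 symbols were updated through RefSeq. The probe set of highest mean stood for each of the 1082 genes with more than 1. Genes with a mean below 5.81 (30%) were left out. The 3 parental arrays were averaged, and 7 samples were fitted with lmFit and eBayes in limma 3.58.1 (R 4.3.3), the model holding the group alone (residual degrees of freedom 4, prior 3.36). The single parental sample is assumed to vary like the lines. P-values measure the spread between these lines. Zeb2 and second probe sets were fitted over all probe sets, an alternative chosen after the data were seen. The procedure was tested on simulated data, for AZD1208 against vehicle lines alone. Changes of 1 log2 unit passed the adjusted threshold in 59.7% of 67 genes, and changes of 2 units in 97%. Changes smaller than 1 unit, the size of the members' differences, and comparisons with the parental sample were not tried.

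Members, gene lists and the rule for named genes were chosen with earlier results of these data known. The rule takes every member, from each list up to 4 genes of smallest unadjusted p in recurrent lines against parental and up to 2 in AZD1208 against vehicle lines, and for each tested member the 2 genes of highest Pearson r, passing over predicted genes, olfactory receptors and small RNAs.

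Vehicle and AZD1208 lines share replicate numbers, and no label says what the numbers pair. Deviations from the group means correlated at 0.146, 0.118 and 0.532 for the lines numbered 1, 2 and 3, and vehicle 1 with AZD1208 2 at 0.264. A fit with the number as a block was run beside the main one. The other alternatives were quantile normalization, centring, other filters, 3 parental samples, array quality weights, the mean of probe sets, only the 2 groups compared, an intensity trend in the prior, and each line left out in turn.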

Additional observations from a re-analysis of the deposited data

How the results depend on the processing

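No member passed the adjusted threshold under any alternative run (limma). Of 636 member differences under alternatives, 603 kept their sign and 33 turned. The lowest adjusted p was 0.0782 for Vim in recurrent lines against parental, with the replicate block, and 0.0558 for its second probe set with the parental arrays as 3 samples. The mean of probe sets gave Vim 0.58 in place of 0.43.

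Over all genes, counting the technical parental arrays as 3 samples called 53 genes in vehicle lines, 41 in AZD1208 lines and 156 in recurrent lines against parental, and the replicate block, which also uses 3 parental arrays, called 105, 89 and 337. Both take technical spread for biological. The block called 0 genes in AZD1208 against vehicle lines. Array quality weights called 2 genes in AZD1208 lines and 1 in recurrent lines against parental. Leaving out a line called 0 to 1 genes in AZD1208 lines against parental (1 without vehicle 1) and 0 in the other comparisons.

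Signs turned for Twist1 in AZD1208 against vehicle lines with quantile normalization (-0.0224) and centring (-0.0237), and for Cdh2 in vehicle lines against parental with the same (0.0022 and 0.0026). With array quality weights they turned for Snai1 in recurrent lines (-0.0059), Snai2 in AZD1208 lines against vehicle (-0.0231) and parental (-0.0088), Zeb1 against vehicle (-0.0164), in AZD1208 lines (-0.0607) and recurrent lines (-0.0525), and Cdh2 in recurrent lines (-0.0019), where the mean of probe sets gave -0.0012. The causes were not tested.

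With a line left out, AZD1208 minus vehicle ranged from -0.0638 to 0.1146 for Snai2, -0.0964 to 0.1018 for Twist1, -0.3109 to 0.0414 for Esrp1 and -0.0944 to 0.0742 for Zeb2 with Zeb2os. Vehicle minus parental ranged from -0.1265 to 0.1467 for Snai1, -0.0394 to 0.0918 for Snai2, -0.1656 to 0.0128 for Twist1, -0.3276 to 0.0041 for Twist2, -0.0438 to 0.0236 for Cdh2 and -0.0671 to 0.2851 for Esrp1. AZD1208 minus parental ranged from -0.0263 to 0.1413 for Snai2, -0.1734 to 0.0158 for Twist1 and -0.13 to 0.0843 for Esrp1. Recurrent minus parental ranged from -0.013 to 0.0669 for Zeb1, -0.0026 to 0.0558 for Cdh2 and -0.0465 to 0.1297 for Esrp1.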
